A study of Mus musculus with 46 samples.

Results

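The genes described here are 38 genes of DNA replication and cell division, chosen by symbol: the subunits of the replicative helicase and its loading factors, proteins of the replication fork, enzymes that supply deoxynucleotides, cyclins and cyclin-dependent kinases, mitotic regulators and the HMGB chromatin proteins. Of the 38 genes, 36 were measured by 88 of the 45037 probesets of the array, beside 18193 genes measured in all. The tissue was the BNST, the bed nucleus of the stria terminalis in the extended amygdala, from adult male C57BL/6J mice. CIE mice breathed ethanol vapor for 16 hours a day on 4 days, then had 7 days of abstinence, over 4 cycles, and were given ethanol (1.6 g/kg) and pyrazole (1 mmol/kg), which blocks alcohol dehydrogenase, before each cycle. Ctrl mice breathed air in inhalation chambers and were given saline with the same pyrazole, so that every mouse of the study had received pyrazole. Tissue was taken at 4 times counted from the end of the last session (0 h, 8 h, 72 h and 7 d), with 6 mice in each of the 8 groups except CIE at 7 d, which had 4, and 1 array per mouse. Values are log2 intensities, and a difference is CIE minus Ctrl on that scale.

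Cells about to divide load the MCM helicase onto origins in G1, unwind and copy the DNA in S phase, and condense and separate chromosomes in mitosis. D-type cyclins with Cdk4 or Cdk6 open the G1 gate by phosphorylating the retinoblastoma family of pocket proteins, which frees E2F factors to activate replication genes, and the mitotic genes follow under a separate promoter element, the CHR (cell cycle genes homology region). In the adult forebrain most neurons have left the cell cycle, and dividing cells are mainly glial precursors, endothelial cells, microglia and the progenitors of the neurogenic zones. The D-type cyclins, Pcna and the HMGB proteins also have roles outside S phase, in growth signaling, DNA repair and chromatin structure.

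The promoters of 4 members that the results turn on are shown for the elements that the cell cycle genes are known for. They run from 250 bases before to 50 bases after the RefSeq start and come from the GRCm38.p6 build: Hmgb2 at chr8:57511593-57511892 on the plus strand, Mcm5 at chr8:75109259-75109558 on the plus strand, Ccnd3 at the upstream start chr17:47504801-47505100 and the downstream start chr17:47593217-47593516 on the plus strand, and Ccnb2 at chr9:70421505-70421804 on the minus strand. Capitals mark TTCCCGC or TTGGCGC (forms of the E2F core), TTTGAA (the CHR) and CCAAT (the CCAAT box), searched on both strands, with no overlap among these matches.
Hmgb2: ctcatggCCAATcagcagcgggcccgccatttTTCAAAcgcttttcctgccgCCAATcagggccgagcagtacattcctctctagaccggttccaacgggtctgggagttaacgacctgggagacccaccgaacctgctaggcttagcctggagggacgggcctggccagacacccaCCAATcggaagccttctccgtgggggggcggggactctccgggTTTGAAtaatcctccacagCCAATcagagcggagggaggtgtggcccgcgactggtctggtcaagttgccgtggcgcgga
Mcm5: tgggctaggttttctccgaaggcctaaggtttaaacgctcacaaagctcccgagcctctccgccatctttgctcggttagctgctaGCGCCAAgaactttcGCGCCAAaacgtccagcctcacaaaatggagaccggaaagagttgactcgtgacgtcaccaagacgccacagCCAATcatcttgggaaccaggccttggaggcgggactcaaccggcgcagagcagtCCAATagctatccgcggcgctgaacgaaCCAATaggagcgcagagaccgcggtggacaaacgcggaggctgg
Ccnd3 upstream: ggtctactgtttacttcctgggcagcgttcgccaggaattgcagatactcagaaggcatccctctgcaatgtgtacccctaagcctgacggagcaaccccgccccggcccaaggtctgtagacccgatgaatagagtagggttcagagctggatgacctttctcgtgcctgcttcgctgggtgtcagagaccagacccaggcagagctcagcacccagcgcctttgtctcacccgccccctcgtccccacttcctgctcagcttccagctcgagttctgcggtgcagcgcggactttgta
Ccnd3 downstream: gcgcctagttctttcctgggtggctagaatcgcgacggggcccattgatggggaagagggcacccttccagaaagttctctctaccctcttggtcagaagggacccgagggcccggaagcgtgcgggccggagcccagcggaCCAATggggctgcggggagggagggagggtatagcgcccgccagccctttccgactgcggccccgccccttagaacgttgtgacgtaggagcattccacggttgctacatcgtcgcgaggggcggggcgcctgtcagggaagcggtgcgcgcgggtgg
Ccnb2: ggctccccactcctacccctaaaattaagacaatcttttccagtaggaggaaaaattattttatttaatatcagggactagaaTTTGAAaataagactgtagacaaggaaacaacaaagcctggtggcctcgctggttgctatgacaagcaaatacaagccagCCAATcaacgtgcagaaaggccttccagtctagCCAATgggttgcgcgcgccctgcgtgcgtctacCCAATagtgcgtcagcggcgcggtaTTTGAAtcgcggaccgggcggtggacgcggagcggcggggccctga

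The Hmgb2 window held TTTGAA 30 bases before the start, a second copy on the opposite strand whose left end was at -218, and 4 CCAAT boxes. In Mcm5 the only capitals besides 3 CCAAT boxes were 2 copies of TTGGCGC on the opposite strand, with left ends at -164 and -149. Ccnb2 held TTTGAA at -167 and at 5 bases after the start, with 3 CCAAT boxes between them, whereas of the Ccnd3 windows the upstream one held none of these letters and the downstream one a single CCAAT at -108. RefSeq promoters were found for 32 of the 38 listed genes (35 windows). One form or the other of the E2F core was in 15 of these 35 windows (42.9%), beside 6.81% of all 32851 promoters of the same length. The split by form was 28.6% beside 4.6% for TTCCCGC and 22.9% beside 2.45% for TTGGCGC. The CHR letters TTTGAA were in 28.6% of the windows beside 17.9% of all promoters, and CCAAT in 74.3% beside 37.4%. These are matches of letters and were not tested as sites.

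Members were about as often dim in the BNST as genes in general. The representative probeset of a gene is its brightest, and its mean over the 46 arrays ranged from 3.87 (Aurkb, a mitotic kinase) to 11.29 (Pcna, the sliding clamp of the replication fork), with a median of 7.25 for the members and 7.95 for all genes. A mean under 6 was found for 10 of 36 members (27.8%) and for 29% of all genes. Levels differed by role. Representative means lay between 6.32 and 9.34 for the helicase subunits and between 7.26 and 11.3 for the fork proteins. They lay between 5.43 and 6.69 for the later cyclins with Cdk1, and between 3.87 and 6.30 for the mitotic and proliferation genes. Levels of different probesets depend on the probes, so this order places them in the distribution only. No detection call was available. Of the 88 member probesets 37 (42%) had means under 6, beside 39.1% of all. Ccnb1 was not analysed here because no probeset used here is named for it, and Hmgb1 because its 5 probesets name several genes.

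**Figure D1:**
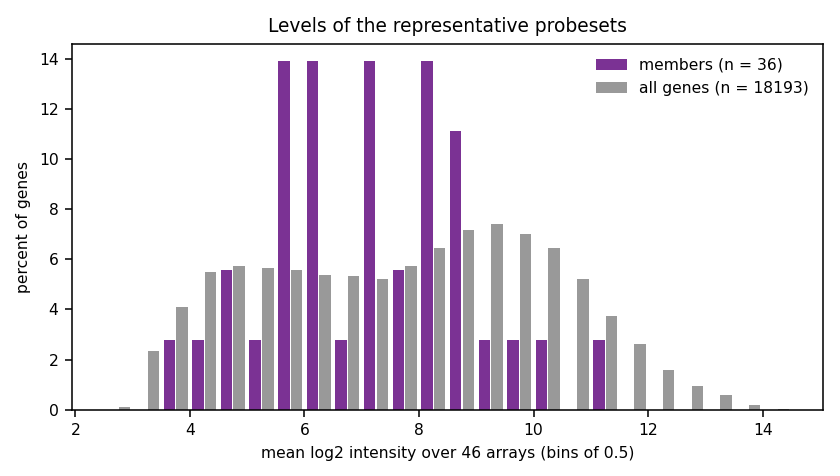
Percent of genes (vertical axis) by mean log2 intensity over 46 arrays in bins of 0.5 (horizontal axis), for the 36 members and for all 18193 genes, each by its representative probeset. Member means run from 3.87 to 11.29, and 10 of the 36 lie under 6.

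Array medians lay between 6.78 and 6.83, and correlations between 2 arrays between 0.981 and 0.998. The defining markers of neurons were high in every mouse, with a mean over the 8 marker genes between 12.36 and 12.53 on the log2 scale, the dimmest being the glutamate transporter gene Slc17a6 at 11. Markers of other cell types moved with CIE at 0 h, where 3.09% of all genes were called in either direction. Endothelial and mural markers had 3 of 9 genes that fell and a median difference of -0.30. The mean over these 9 genes was 8.55 to 8.73 in CIE mice and 8.78 to 9.07 in Ctrl mice, without overlap. Microglial markers had 1 of 9 that fell (Fcrls) and a median of -0.24, with list means of 9.43 to 9.83 in CIE and 9.79 to 10.15 in Ctrl mice. Astrocyte markers had 1 of 8 that fell (Fabp7, median -0.17). Their list means were 10.91 to 11.01 in CIE and 11.03 to 11.31 in Ctrl mice, also without overlap. Progenitor and immature neuron markers had 1 of 11 that fell (Hes5, median -0.06) and oligodendrocyte markers 1 of 6 (Ugt8a, median 0.000417). Choroid plexus and ependymal markers had 1 of 6 that rose (Kl, median 0.21). Ugt8a and Kl have 2 probesets each, and the other one was not called in the same direction. No gene passed the test among 8 oligodendrocyte precursor markers (median -0.06), 6 striatal neuron markers (median 0.36) or 8 neuronal markers (median -0.04). The striatal list mean varied widely between mice at 0 h, 9.99 to 11 in CIE and 9.65 to 10.48 in Ctrl mice, with overlap. At 8 h, beside 0.742% of all genes called, Hes5 (1 of 11, list median -0.09) and Fabp7 (1 of 8, list median -0.00681) fell. Gpr17 fell among 8 precursor markers (list median -0.02) and Fcrls among 9 microglial markers (list median 0.05). None of the other genes in these lists was called at 8 h. At 72 h, beside 0.687% of all genes, Gpr17 (1 of 8), C1qb (1 of 9) and S100b (1 of 8, list median -0.171) fell. C1qb was just inside the threshold (limma adjusted p = 0.00987). No other probeset of C1qb (3 in all) or S100b (2 in all) was called in that direction. Over 11 progenitor and immature neuron markers the list mean at 8 h was 8.61 to 8.77 in CIE and 8.75 to 8.98 in Ctrl mice, with overlap. Hes5 alone differed by -1.78 at 8 h, and the other 10 markers of this list were not called. At 72 h 3 lists did not overlap between the groups. The microglial mean was 9.56 to 9.91 in CIE and 10.02 to 10.14 in Ctrl mice (median difference -0.435), that of oligodendrocyte precursors 9.82 to 9.95 in CIE and 10.04 to 10.16 in Ctrl mice (-0.218), and that of oligodendrocytes 12.32 to 12.45 in CIE and 12.54 to 12.61 in Ctrl mice (-0.196). In bulk tissue, fewer cells of a type and less RNA per cell cannot be told apart, and the part of these markers in the results below was not tested.

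CIE and Ctrl mice differed in few of the members, mainly at the end of the last vapor session. With limma and a Benjamini-Hochberg adjusted p of 0.01 or less (called, below), 7 of 88 member probesets (7.95%) were called at 0 h, beside 2.40% of all probesets. The 4 that rose (background 1.05%) were the 3 probesets of Hmgb2, a DNA-bending chromatin protein, and 1 of Ccnd3 (cyclin D3). The 3 that fell (background 1.35%) were 1 probeset of Mcm5, a helicase subunit, and 2 of Ccnd1 (cyclin D1). By representative probeset 3 of 36 members were called, Hmgb2 upward and Mcm5 and Ccnd1 downward, beside 3.09% of all genes. At 8 h, 1 probeset was called, Ccnd3, which rose (1.14% of member probesets, beside 0.557% of all and 0.335% called upward), and 0 of 36 representative probesets (background 0.742%). At 72 h no member probeset was called by limma, beside 0.433% of all probesets and 0.687% of representative ones. Of the member probesets, 10 had an unadjusted p under 0.05 at 72 h, beside 5667 of all, and the smallest adjusted p was 0.115. At 7 d no probeset of the whole array was called, and 2 member probesets were under an unadjusted 0.05, beside 2226 of all.

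**Figure D2:**
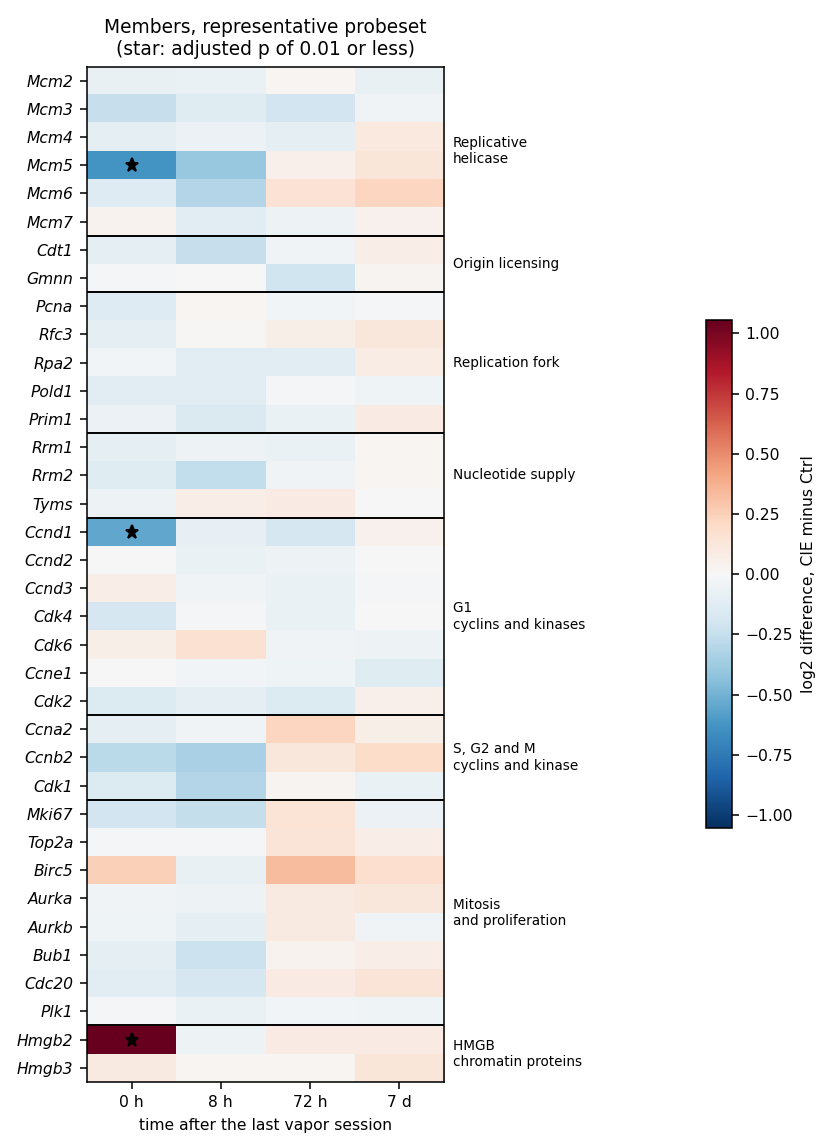
Log2 difference, CIE minus Ctrl, of the representative probeset of each of 36 members (rows, grouped by role) at each time (columns), with red for higher and blue for lower in CIE. Stars mark an adjusted p of 0.01 or less: Hmgb2 (1.05), Mcm5 (-0.63) and Ccnd1 (-0.55) at 0 h, and none at 8 h, 72 h or 7 d.

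Small differences leaned one way at the early times. The median difference over the 36 representative probesets was -0.09 at 0 h and -0.08 at 8 h, beside medians of all genes of 0.000895 and -0.00818. At 0 h, 29 of 36 members were lower in CIE (80.6%, beside 49.6% of all genes), and at 8 h 30 of 36 (83.3%, beside 53.9%). At 72 h 19 of 36 were lower (52.8%, beside 51.7% of all genes) with a median of -0.02. At 7 d 24 of 36 were higher in CIE with a median of 0.05, and 33.3% were lower, beside 41.4% of all genes. These are counts of differences that mostly did not pass the test, and the members share mice and arrays.

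Among the helicase subunits Mcm5 was the 1 member called. Mcm5 is part of the ring that unwinds DNA ahead of the fork. Its brightest probeset (1436808_x_at) had a lowest, median and highest value of 6.33, 6.67 and 6.99 in CIE mice at 0 h, against 7.11, 7.32 and 7.54 in Ctrl mice. Every CIE mouse was below every Ctrl mouse. The means were 6.69 ± 0.24 in CIE and 7.31 ± 0.15 in Ctrl mice (SD, n = 6 each), a difference of -0.63 (SE 0.13, limma adjusted p = 0.00109), or 0.647 of the Ctrl level. At 8 h the values ran from 6.64 over 7.06 to 7.36 in CIE and from 7.26 over 7.38 to 7.69 in Ctrl mice, groups that overlapped, and the difference of -0.40 was not called (adjusted p = 0.123). CIE mice were close to Ctrl mice later: medians were 7.50 in CIE and 7.37 in Ctrl mice at 72 h. At 7 d the 4 CIE mice had 7.26, 7.27, 7.29 and 7.82 and the Ctrl median was 7.35. A change of the CIE effect over time was not called for Mcm5 (F test adjusted p = 0.0201). Within CIE mice, Mcm5 was higher by 0.75 at 72 h than at 0 h (adjusted p = 4.05e-05) and by 0.72 at 7 d (adjusted p = 0.000637). The name of this probeset marks probes that can match other transcripts. A second, dimmer Mcm5 probeset (1415945_at, mean 4.99) differed by -0.42 at 0 h (95% interval -0.72 to -0.11, adjusted p = 0.107) and another (1459658_at, mean 4.02) by -0.07.

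The other helicase genes were not called between CIE and Ctrl. Mcm6, the partner of the Mcm2 and Mcm4 subunits, came nearest at 8 h, with values of 6.98, 7.07 and 7.38 in CIE against 7.13, 7.42 and 7.71 in Ctrl mice (lowest, median and highest). The groups overlapped, and the difference of -0.31 (SE 0.08) had an adjusted p of 0.0487. Mcm6 varied over time in both treatments. Its F test was called over the CIE time course (adjusted p = 0.00589) and over the Ctrl time course (adjusted p = 0.000999). CIE means were 7.02 at 0 h, 7.12 at 8 h, 7.40 at 72 h and 7.21 at 7 d. Ctrl means followed another course, 7.15 at 0 h, 7.42 at 8 h, 7.24 at 72 h and 6.98 at 7 d. The change of the CIE effect itself, which compares these courses, had an adjusted p of 0.0126 and was not called. Mcm2 (1434079_s_at) had medians of 7.94 in CIE and 8.08 in Ctrl mice at 0 h, and its differences lay between -0.08 and 0.02 over the 4 times. Of the remaining subunits, Mcm3 differed by -0.24, Mcm4 by -0.10 and Mcm7 by 0.03 at 0 h by their brightest probesets. A dimmer Mcm3 probeset (1426652_at, mean 5.75) came almost as near as Mcm6, with -0.35 at 0 h (limma adjusted p = 0.0491). The further Mcm3 probesets differed by -0.28, -0.01 and 0.01 at 0 h. Over the 6 helicase genes the median difference was -0.12 at 0 h and -0.12 at 8 h.

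At the origins and forks no member was called between CIE and Ctrl. Cdt1, which loads the helicase, differed by -0.24 at 8 h, and Gmnn (geminin), which blocks Cdt1, by -0.21 at 72 h. Pcna had a lowest, median and highest value of 11.17, 11.20 and 11.27 in CIE mice at 0 h, against 11.18, 11.37 and 11.43 in Ctrl mice. These groups overlapped, and the difference was -0.13 (SE 0.05, adjusted p = 0.0955). Prim1, the primase subunit that starts each new strand, was called over the Ctrl time course on its brightest probeset (F test adjusted p = 3.51e-05). Its other probeset (1449061_a_at) was not called over that course (F test adjusted p = 0.023). On the brightest probeset the Ctrl means were 8.52 at 0 h, 8.68 at 8 h, 8.68 at 72 h and 8.36 at 7 d. CIE means of Prim1 were 8.45 at 0 h, 8.53 at 8 h, 8.60 at 72 h and 8.45 at 7 d, and that course was not called (adjusted p = 0.0984). The change of the CIE effect, which compares the courses, was not called either (adjusted p = 0.309). Rpa2, a subunit of the protein that coats single-stranded DNA, was called over the CIE time course by its second probeset (1454011_a_at, adjusted p = 0.0063) and not by its brightest one (adjusted p = 0.224). On that second probeset the CIE mice had 6.02, 7.07 and 7.28 (lowest, median and highest) at 8 h, against 6.79, 7.19 and 7.27 in Ctrl mice at 8 h. At 0 h all 6 CIE mice lay between 7.38 and 7.51. The low mean at 8 h thus came with a wide spread (SD 0.47, against 0.05 at 0 h).

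Genes of nucleotide supply, which make the deoxynucleotides for DNA synthesis, were not called between CIE and Ctrl. Rrm2, the subunit of ribonucleotide reductase that is made in S phase, was dim (mean 5.58). At 8 h it had 5.12, 5.76 and 6.00 in CIE mice against 5.50, 5.97 and 6.18 in Ctrl mice, with overlap and a difference of -0.26 (adjusted p = 0.397). It varied over the Ctrl time course on 2 of its 3 probesets, 1434437_x_at, whose name marks probes that can match other transcripts, and 1448226_at (adjusted p = 0.000693 and 0.000553). Its Ctrl means were 5.66 at 0 h, 5.92 at 8 h, 5.62 at 72 h and 5.27 at 7 d. Rrm1, its constant partner, differed by -0.10 at 0 h, and Tyms (thymidylate synthase) by -0.06.

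Of the G1 cyclins, Ccnd1 fell and Ccnd3 rose at 0 h, each on some of its probesets. Ccnd1 fell on 2 of 3. Cyclin D1 links growth signals to Cdk4 and Cdk6. On its brightest probeset (1448698_at) CIE mice had 9.17, 9.28 and 9.42 (lowest, median and highest) at 0 h, against 9.40, 9.89 and 10.05 in Ctrl mice. The groups overlapped by 1 Ctrl mouse at 9.40, and the other Ctrl mice were at 9.83 or above. Means were 9.29 ± 0.11 in CIE and 9.84 ± 0.23 in Ctrl mice (SD, n = 6 each), a difference of -0.55 (SE 0.08, adjusted p = 9.42e-06) or 0.683 of the Ctrl level. The probeset 1417420_at fell by 0.56 (adjusted p = 0.00302), and 1417419_at, on which the groups did not overlap (7.22 to 7.54 in CIE, 7.62 to 7.93 in Ctrl mice), differed by -0.43 (adjusted p = 0.029, not called). No Ccnd1 probeset was called at the later times. The difference on 1448698_at was -0.09 at 8 h, -0.17 at 72 h (95% interval -0.34 to -0.01, adjusted p = 0.34) and 0.04 at 7 d. On 1417420_at it was -0.27 at 72 h (adjusted p = 0.342), where 5 CIE mice lay under the lowest Ctrl value, and on 1417419_at -0.20 at 7 d. On 1448698_at the change of the CIE effect was called (adjusted p = 0.00734). Within CIE mice that probeset was higher by 0.37 at 8 h than at 0 h (adjusted p = 0.0022). The fall on 1417420_at was not called in the fit on the 2 groups at 0 h alone (adjusted p = 0.0225), nor without Ctrl mouse 30, Ctrl mouse 64 or CIE mouse 57 (adjusted p = 0.0114, 0.0111 and 0.0115).

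Ccnd3 rose on 1 of its 3 probesets. Cyclin D3 shares the kinase partners of cyclin D1. On 1438805_at CIE mice had 7.40, 7.59 and 7.74 (lowest, median and highest) at 0 h, against 6.67, 7.00 and 7.24 in Ctrl mice. Every CIE mouse was above every Ctrl mouse, and the difference was 0.60 (SE 0.08, adjusted p = 1.05e-06), 1.52 times the Ctrl level. At 8 h the values were 6.99, 7.29 and 7.50 in CIE and 6.84, 6.91 and 7.00 in Ctrl mice, with an overlap between 6.99 and 7.00. That difference was 0.35 (SE 0.08, adjusted p = 0.00981). It was just inside the threshold and was lost when any 1 of 33 of the 46 arrays was left out (adjusted p from 0.00219 to 0.0348 over the 46). At 72 h the medians were 6.81 in CIE and 6.99 in Ctrl mice. At 7 d the CIE mice had 6.75, 6.78, 6.85 and 6.99 and the Ctrl median was 6.95, so that the 2 later differences, -0.17 and -0.11, had the other sign and were not called. A change of the CIE effect over time was called (adjusted p = 1.01e-05). The brighter Ccnd3 probeset 1415907_at (mean 8.00) did not share the rise, with medians of 8.06 in CIE and 8.01 in Ctrl mice and a difference of 0.07 (95% interval -0.06 to 0.20). On 1444323_at the difference at 0 h was 0.00 (95% interval -0.16 to 0.16). Which Ccnd3 transcripts each probeset reads was not analysed here.

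**Figure D3:**
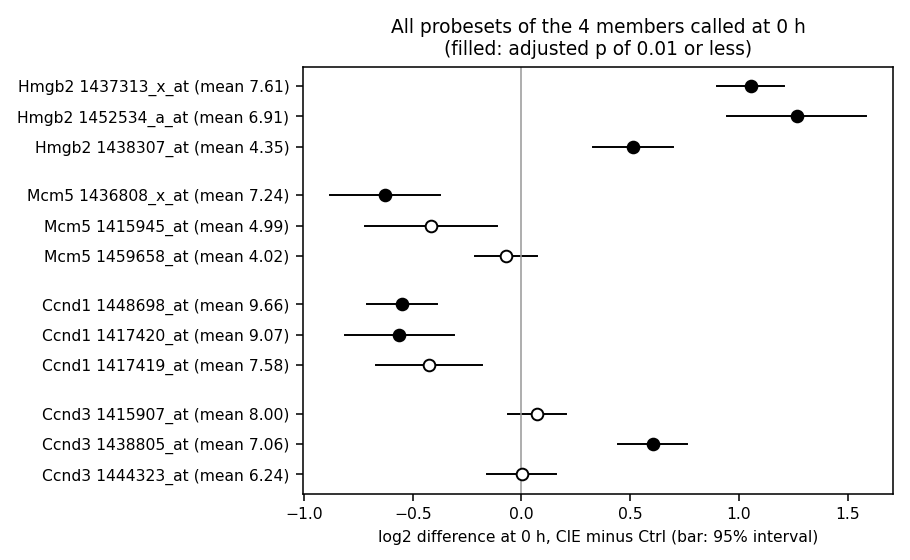
Log2 difference at 0 h, CIE minus Ctrl, with its 95% interval, for all 12 probesets of the 4 members called at 0 h, with the mean log2 level of each probeset in parentheses. Filled points have an adjusted p of 0.01 or less. The 3 Hmgb2 probesets all lie above 0, whereas 1 Ccnd3 probeset lies at 0.60 and the others at 0.07 and 0.00.

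Ccnd2 (cyclin D2) did not pass the test in any comparison of CIE with Ctrl on its 7 probesets. Its brightest probeset had medians of 8.52 in CIE and 8.61 in Ctrl mice at 0 h, and a difference of 0.00 (SE 0.10). A Ctrl time course was called for 1 other probeset (1448229_s_at, adjusted p = 0.00733), with Ctrl means of 7.76 at 0 h, 7.51 at 8 h, 7.60 at 72 h and 7.98 at 7 d. Ccnd1 was called over the Ctrl time course too, on 1417419_at (adjusted p = 0.00411), with Ctrl means of 7.80, 7.41, 7.56 and 7.94 at the same times. Both of these cyclin D probesets were therefore lowest at 8 h and highest at 7 d in air mice. The other Ccnd1 probesets did not share this course and were not called over it. On the brightest (1448698_at, F test adjusted p = 0.105) the Ctrl means were 9.84, 9.75, 9.83 and 9.62, lowest at 7 d. On 1417420_at (F test adjusted p = 0.434) they were 9.25, 9.03, 9.22 and 9.22, highest at 0 h. Cdk4 differed by -0.18, Cdk6 by 0.06, Cdk2 by -0.14 and Ccne1 (cyclin E1) by -0.000541 at 0 h, none called.

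Cyclins and kinase of the later phases were lower in CIE mice at 0 h and 8 h without a call. Ccnb2 (cyclin B2), which with Cdk1 drives entry into mitosis, had 5.48, 5.87 and 5.99 in CIE mice at 8 h (lowest, median and highest), against 5.88, 6.10 and 6.40 in Ctrl mice. The groups overlapped, and the difference was -0.34 (SE 0.10, adjusted p = 0.0916), beside -0.28 at 0 h (adjusted p = 0.101). Cdk1 itself had 5.27, 5.37 and 5.69 in CIE against 5.45, 5.75 and 5.95 in Ctrl mice at 8 h, a difference of -0.31 (adjusted p = 0.141). Ccna2 (cyclin A2), which acts in S phase and G2, differed by -0.03 at 8 h. All 11 members of the later cyclins and of mitosis were lower in CIE than in Ctrl mice at 8 h by their representative probeset, beside 53.9% of all genes. All 19 of their probesets were lower too, and 0 of the 19 were called, beside 0.557% of all probesets. At 0 h 10 of the 11 were lower in CIE, beside 49.6% of all genes, the exception being Birc5 at 0.25. Over their probesets it was 16 of 19. At 72 h 10 of the 11, and 16 of the 19 probesets, were higher in CIE, where 51.7% of all genes were lower. The difference for Birc5 at 72 h was 0.33 (adjusted p = 0.115).

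Over the air controls alone, the members of the later cyclins and of mitosis shared the time of their highest mean. Their representative probesets were mostly dim, with means over all arrays between 3.87 and 6.69. The order of the Ctrl means was examined after seeing the data. Ctrl mice at 8 h had the highest of the 4 Ctrl means for 11 of these 11 members, and for 17 of all 36 members (47.2%, beside 35.4% of all genes). Over all 19 probesets it was 15. Leaving out any 1 Ctrl mouse gave between 9 and 11 of the 11. The lower CIE values of these members at 8 h, given above, use the same Ctrl mice at 8 h, so these patterns are not independent. In CIE mice the highest mean was at 8 h for 6 of the 11, beside 28.4% of all genes. The differences between Ctrl at 8 h and Ctrl at 0 h were small, 0.04 to 0.41 for the representative probesets, and 0 of the 19 probesets were called (background 0.713%), the smallest adjusted p being 0.0314. Ctrl mice at 7 d had the lowest Ctrl mean for 5 of the 11, and for 21 of all 36 members (58.3%, beside 45.7% of all genes).

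Ccnb2 had the smallest adjusted p of the member probesets over the Ctrl time course (F test, 3.39e-06). Ctrl mice had 5.58, 5.94 and 6.21 (lowest, median and highest) at 0 h, 5.88, 6.10 and 6.40 at 8 h, 5.43, 5.64 and 5.91 at 72 h, and 5.14, 5.40 and 5.54 at 7 d. The 7 d mice were all below the 0 h mice, and the difference was -0.56 (SE 0.10, adjusted p = 0.000352). It was the 1 member probeset of 88 called for Ctrl at 7 d against Ctrl at 0 h (1.14%, beside 2.23% of all probesets). CIE means of Ccnb2 were 5.63, 5.79, 5.78 and 5.54 at the 4 times, and that course was not called (adjusted p = 0.267), nor was the change of the CIE effect (adjusted p = 0.0347). Birc5 (survivin), a member of the complex that corrects chromosome attachment, had Ctrl means of 5.61, 6.01, 5.43 and 5.41 (adjusted p = 0.000266). Bub1, a spindle checkpoint kinase, had Ctrl means of 4.20, 4.37, 4.11 and 4.05 (adjusted p = 0.00115), at the dim end of the array. The other Bub1 probeset (1438571_at) was not called over the Ctrl time course. Top2a (topoisomerase II alpha), which untangles sister chromosomes, was called on its brightest probeset (means of 5.98, 6.02, 5.92 and 5.74, adjusted p = 0.00428) and not on its other probesets (adjusted p = 0.421 and 0.644). Mki67, the gene of the proliferation antigen Ki-67, was dim with medians of 4.34 in CIE and 4.54 in Ctrl mice at 0 h, and its Ctrl course was not called (adjusted p = 0.0471). Its CIE difference was -0.20 at 0 h and -0.25 at 8 h, with adjusted p values of 0.434 and 0.452. Over all members, 12 of 88 probesets of 10 genes were called over the Ctrl time course (13.6%, beside 10.9% of all probesets), and 9 of 7 genes over the CIE time course (10.2%, beside 7.76%). With the Ctrl arrays alone 7 of the 12 were called, and those lost were Ccnd1, Ccnd2, Top2a, Hmgb3 and the second probeset of Mcm6 (1438852_x_at), with adjusted p values from 0.0144 to 0.0391. The filter at a mean of 6 removed the 6 probesets of Rrm2, Ccnb2, Top2a, Birc5 and Bub1, and the other 6 stayed called. With the filter 7 of 51 were called in all, which include a probeset not among the 12. Leaving out 1 array gave 8 to 16.

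**Figure D4:**
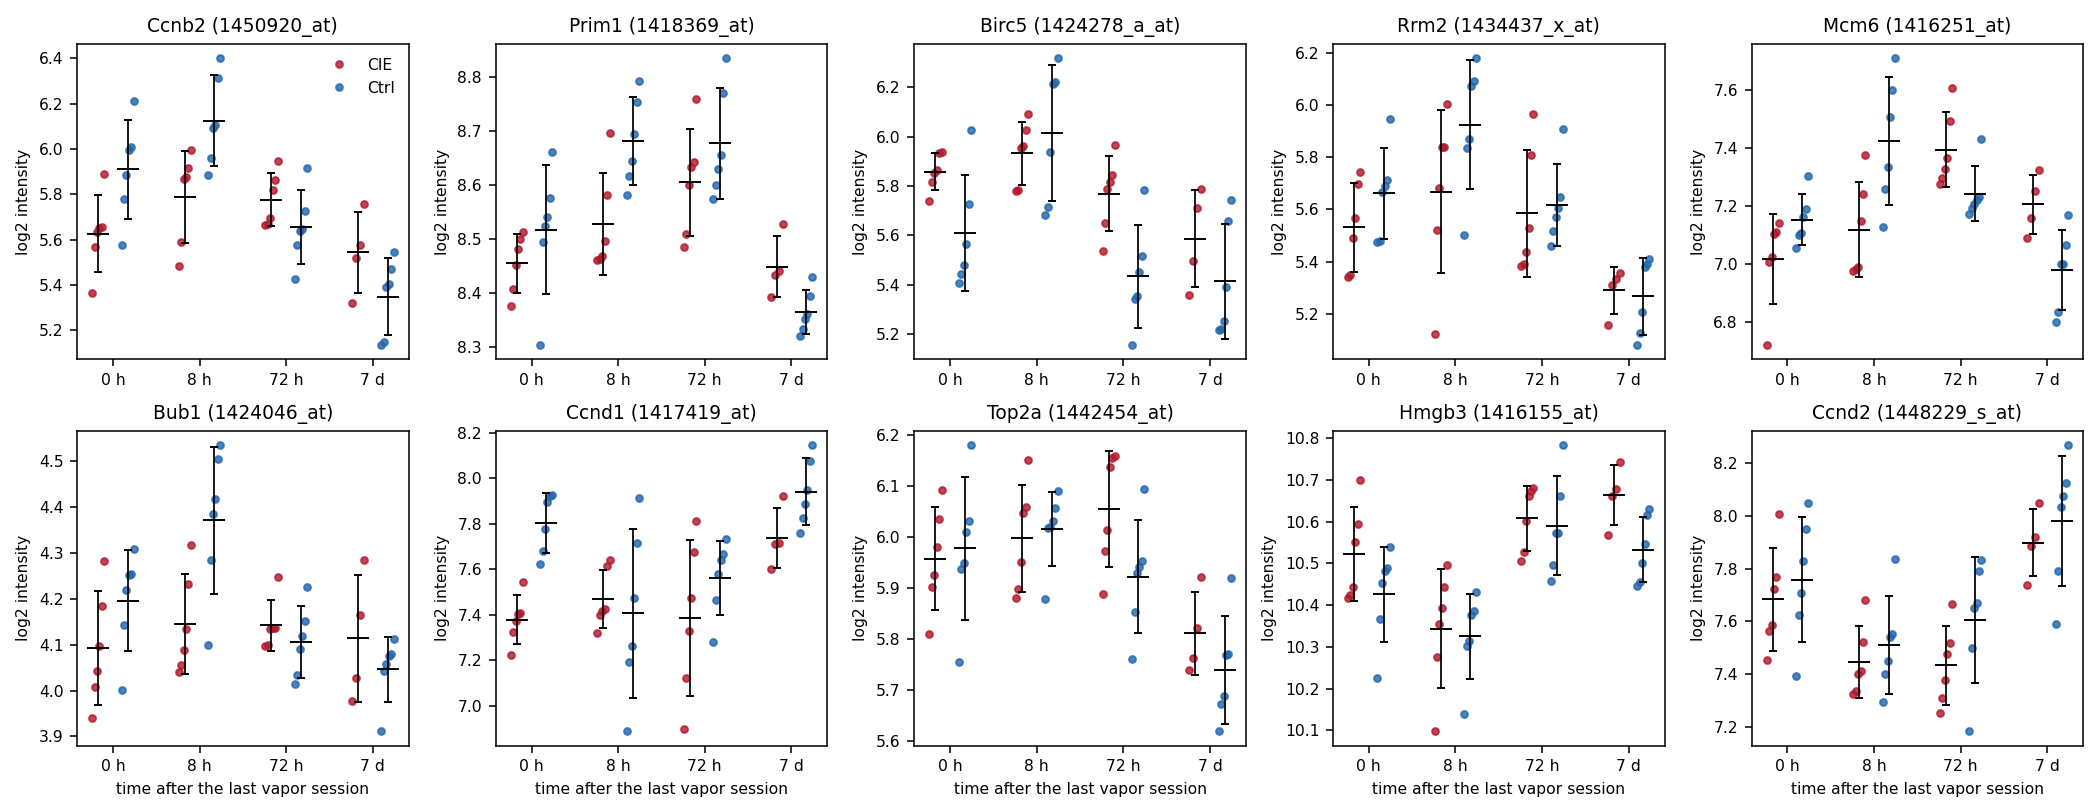
Log2 intensity (vertical axis) in each mouse by time since vapor ended (horizontal axis) for the 10 members called over the Ctrl time course, each by a called probeset, with CIE in red and Ctrl in blue, and mean and SD as black bars (n = 6, or 4 for CIE at 7 d). The Ctrl mean at 8 h is the highest Ctrl mean for Ccnb2 (6.13), Birc5 (6.01), Bub1 (4.37), Rrm2 (5.92), Mcm6 (7.42), Top2a (6.02) and Prim1 (8.68, as at 72 h), and the lowest for Ccnd1 (7.41), Ccnd2 (7.51) and Hmgb3 (10.32). Ccnd1 (1417419_at) and Ccnd2 (1448229_s_at) are not shown by their brightest probesets, which were not called over the Ctrl time course.

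Hmgb2 had the largest difference of all members, and of the 4 times it was called at 0 h only. HMGB2 bends DNA and is abundant in dividing and progenitor cells. On its brightest probeset (1437313_x_at) CIE mice had 8.19, 8.44 and 8.70 (lowest, median and highest) at 0 h, against 7.20, 7.40 and 7.57 in Ctrl mice. The groups did not overlap, with means of 8.45 ± 0.17 in CIE and 7.40 ± 0.12 in Ctrl mice (SD, n = 6 each). The difference was 1.05 (SE 0.08, adjusted p = 3.78e-13), or 2.08 times the Ctrl level. The name of this probeset marks probes that can match other transcripts. A second probeset without that mark (1452534_a_at) had 7.69, 7.92 and 8.41 in CIE against 6.55, 6.68 and 7.01 in Ctrl mice, a difference of 1.27 (SE 0.16, adjusted p = 6.39e-07). The dimmest (1438307_at, mean 4.35) had 4.60, 4.76 and 4.78 in CIE against 3.88, 4.23 and 4.59 in Ctrl mice, a difference of 0.51 (adjusted p = 0.000217). On all 3 probesets every CIE mouse was above every Ctrl mouse at 0 h. This last rise was not called in the fit on the 2 groups at 0 h alone (adjusted p = 0.0178).

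By 8 h the Hmgb2 groups overlapped. CIE mice had 7.22, 7.39 and 7.61 on 1437313_x_at, against 7.25, 7.44 and 7.78 in Ctrl mice, a difference of -0.05 (adjusted p = 0.908). At 72 h the medians were 7.62 in CIE and 7.54 in Ctrl mice. At 7 d the 4 CIE mice had 7.32, 7.54, 7.63 and 7.67 and the Ctrl median was 7.41. A change of the CIE effect over time was called on both brighter probesets (adjusted p = 2.74e-09 and 0.000687). Within CIE mice 1437313_x_at was lower by 1.05 at 8 h than at 0 h (adjusted p = 2.2e-12), and the Ctrl time course was not called (adjusted p = 0.576). Hmgb3, a relative found in stem cells, differed by 0.10 at 0 h (adjusted p = 0.482). It varied over time in both treatments (adjusted p = 0.0059 for Ctrl and 0.00204 for CIE), with the lowest mean at 8 h in each, 10.34 in CIE and 10.32 in Ctrl mice.

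**Figure D5:**
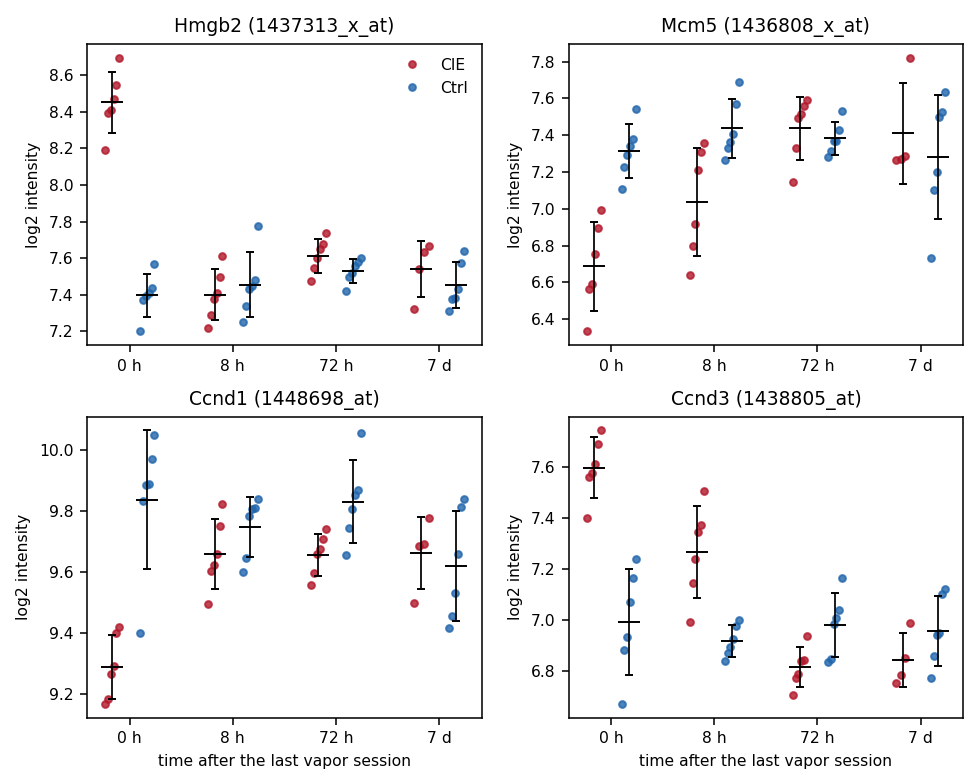
Log2 intensity (vertical axis) in each mouse by time since vapor ended (horizontal axis) for the 4 members called between CIE and Ctrl, with CIE in red and Ctrl in blue, and mean and SD as black bars (n = 6, or 4 for CIE at 7 d). Ccnd3 is shown by 1438805_at, the probeset on which it was called, and the other members by their brightest probeset. At 0 h the CIE mice lie above the Ctrl mice for Hmgb2 (8.45 against 7.40) and Ccnd3 (7.60 against 6.99), and below for Mcm5 (6.69 against 7.31). The brightest Ccnd3 probeset, not shown, differed by 0.07 at 0 h.

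Across the tests over time, 6 of 88 member probesets (6.82%) were called by the F test over the 4 comparisons of CIE with Ctrl, beside 2.84% of all probesets, and all belonged to Mcm5, Ccnd1, Ccnd3 and Hmgb2. The change of the CIE effect was called for 4 (4.55%, beside 1.04%). The values of CIE and Ctrl mice did not overlap for 6 member probesets at 0 h (6.82%, beside 2.50% of all). They overlapped for every member probeset at 8 h (background 1.10%), 72 h (2.90%) and 7 d (1.12%). Within CIE mice, 6 member probesets were called at 8 h against 0 h (6.82%, beside 3.24% of all), 6 at 72 h (beside 6.07%) and 6 at 7 d (beside 2.49%). These comparisons share the CIE mice at 0 h. They were probesets of Hmgb2, Ccnd1, Ccnd3 and Rpa2 at 8 h, of Hmgb2, Ccnd1, Ccnd3, Mcm5 and Mcm6 at 72 h, and of Hmgb2, Ccnd1, Ccnd3 and Mcm5 at 7 d. The 18 members not given one by one (Mcm3, Mcm4, Mcm7, Cdt1, Gmnn, Rfc3, Pold1, Rrm1, Tyms, Cdk4, Cdk6, Ccne1, Cdk2, Ccna2, Aurka, Aurkb, Cdc20 and Plk1) had no call in any of the 4 comparisons or F tests. Their differences lay between -0.24 and 0.22 by representative probeset and between -0.35 and 0.22 over all their probesets.

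Further genes of the same pathways were counted by representative probeset, beside 3.09% of all genes called at 0 h, 0.742% at 8 h and 0.687% at 72 h. Of 35 further replication genes measured, 1 was called at 0 h, Rpa3, another subunit of the single-strand binding protein (8.72 in CIE and 8.92 in Ctrl mice, difference -0.20, adjusted p = 0.0082). Cdc7, the kinase that fires loaded origins, fell at 8 h (9.28 in CIE and 9.58 in Ctrl mice, difference -0.30, adjusted p = 0.00016). At 72 h it rose (9.36 in CIE and 9.11 in Ctrl mice, difference 0.25, adjusted p = 0.00538). The second probeset of Cdc7 was not called in the same direction at either time. The median difference over the list was -0.02 at 0 h and -0.06 at 8 h. Of 37 further mitosis genes, Nuf2, a kinetochore protein, fell at 0 h (5.87 in CIE and 6.44 in Ctrl mice, adjusted p = 0.00222). At 8 h the condensin genes Smc2 (difference -0.29, adjusted p = 0.00458) and Ncapd2 (difference -0.27, adjusted p = 0.00625) fell. No other probeset of Smc2 (5 in all) or Ncapd2 (2 in all) was called in that direction. The mitosis list had a median of -0.02 at 0 h and -0.08 at 8 h. None of either list was called at 7 d, and of the mitosis list none at 72 h.

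The regulators upstream of these genes were counted in the same way, against the same shares of all genes. Among 13 E2F and pocket protein genes, 1 was called at 0 h and 0 at the other times: Rbl1 (p107), a pocket protein, with 6.77 in CIE and 7.11 in Ctrl mice (difference -0.34, adjusted p = 0.00828). No other probeset of Rbl1 (4 in all) was called in that direction. Among 7 inhibitors of cyclin-dependent kinases, Cdkn1a (p21), which blocks cyclin kinases and binds Pcna, rose at 0 h to 10.20 in CIE mice, against 7.94 in Ctrl mice. This is a difference of 2.26 (SE 0.13, adjusted p = 1.08e-15) or 4.78 times the Ctrl level. At 8 h Cdkn1a had 8.89 in CIE and 7.93 in Ctrl mice, a difference of 0.96 (adjusted p = 1.51e-05). It was not called at 72 h (-0.28) or 7 d (-0.05). The other 6 inhibitors were not called at any time.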

How the data were processed

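RNA from the BNST of 46 mice (22 CIE, 24 Ctrl) was hybridized to Affymetrix GeneChip mouse genome arrays. The deposited values are log2 intensities: the authors background corrected and normalized the arrays by RMA within each hybridization batch, quantile normalized all of them together and removed hybridization batch with ComBat. Tool versions and each array's batch are not given in the sources used here. Batch therefore entered no fit, and quantile normalization would hide a shift of most genes. Groups came from the treatment and time in the labels. Genes were named from the platform annotation, which gave 34945 probesets a single symbol. The 932 that name several genes were tested but left unnamed.

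The 8 group means were fitted for all 45037 probesets with limma 3.58.1 in R 4.3.3 (38 residual and 3.94 prior degrees of freedom), two-sided, with Benjamini-Hochberg adjustment over all probesets and a threshold of 0.01. Adjusted p values are from this fit unless another setting is named. The median residual SD was 0.135, and the number of arrays limits the precision. The code was tested on simulated data. The members, gene lists and naming rule (members with a call, plus 6 fixed) were chosen with earlier results of these data known. Alternatives were a fit on the compared groups alone, array weights, an intensity trend in the prior, a filter at a mean of 6, aligned array medians, and leaving out each array. Among the lists of other genes, called genes are named, up to 4 per pathway list and 3 per marker list.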

Additional observations from a re-analysis of the deposited data

Results flagged for a closer look

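In 11 of 144 groups of mice looked at (18 members by their brightest probeset in 8 groups), the highest or lowest mouse stood apart from the rest of its group on the log2 scale, where chance flags about 1 in 20 groups. Among them, CIE mouse 27 at 7 d was high for Mcm5, at 7.82 against 7.26 to 7.29 in the other mice, and for Rpa2, at 8.56 against 8.29 to 8.33. CIE mouse 57 at 0 h was low for Mcm6, at 6.72 against 7.01 to 7.14, and for Rpa2, at 8.19 against 8.36 to 8.41. Ctrl mouse 48 at 0 h was low for Ccnd1, at 9.40 against 9.83 to 10.05, and for Rpa2, at 8.18 against 8.35 to 8.45. Ctrl mouse 56 at 0 h was low for Ccnd3 (1415907_at), at 7.68 against 7.97 to 8.12. Ctrl mouse 68 at 72 h was high for Mcm6, at 7.43 against 7.17 to 7.23. Ctrl mouse 66 at 8 h was low for Top2a, at 5.88 against 6.02 to 6.09. For Bub1, CIE mouse 3 at 72 h was high, at 4.25 against 4.10 to 4.14, and Ctrl mouse 36 at 7 d was low, at 3.91 against 4.04 to 4.11.

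The CIE effect differed between times by the F test of limma for Hmgb2 (adjusted p = 2.74e-09 on 1437313_x_at and 0.000687 on 1452534_a_at), Ccnd3 (adjusted p = 1.01e-05 on 1438805_at) and Ccnd1 (adjusted p = 0.00734 on 1448698_at). In each of these the difference at 0 h was the largest of the 4 times in size.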

How the results depend on the processing

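The 8 called differences kept their sign under the alternatives and without each of the 46 arrays, but Hmgb2 on 1438307_at was removed by the filter at 6. Of the 69 named differences not called, 17 changed sign in some setting, all of them within 0.128 of 0, and 2 were called under an alternative. At 8 h, where 1 member probeset was called, 0 were called with only the groups compared and 0 with an intensity trend in the prior, 2 were called with array weights, and leaving out 1 array gave 0 to 1. The Ccnd3 difference at 8 h had adjusted p values of 0.0821, 0.0115 and 0.0124 in those fits, and between 0.00605 and 0.0821 over the alternatives. With array weights Mcm6 was called at 8 h (-0.34, adjusted p = 0.00656), and without Ctrl mouse 58 Bub1 was called there (-0.28, adjusted p = 0.00968). The other probeset called at 8 h with array weights was not this Ccnd3 probeset and is not among the named differences. The change of the CIE effect was called for 7 member probesets with array weights, beside 4. The Ctrl time course was called for 7 with the Ctrl arrays alone and for 7 of 51 with means of at least 6, beside 12. The cause of these changes was not tested, except that the filter left fewer probesets. The order of the Ctrl means at 8 h was examined after seeing the data, and 11 of 11 division members kept it with array medians aligned. No paired analysis was possible because the groups share no replicate numbers. Signal over background was not given, so dim members such as Bub1 and Mki67 may be poorly measured.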
